A study of Homo sapiens with 18 samples.

Results

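The genes described here encode the subunits of the mitochondrial respiratory chain and ATP synthase that are carried in the nuclear genome. They were chosen by symbol: NDUFA, NDUFB, NDUFC, NDUFS, NDUFV and NDUFAB1 genes (complex I), SDHA to SDHD (complex II), UQCR genes and CYC1 (complex III), ubiquitous COX subunit genes (complex IV) and ATP5F, ATP5M and ATP5P genes (complex V). Of 40916 symbols in the count tables, 134 matched, 54 of these stayed under a mean of 1 CPM (count per 1000000 counts of the library) in all 6 groups and were dropped, and 80 were kept. They comprised 37 complex I, 4 complex II, 9 complex III, 12 complex IV and 17 complex V genes and a single pseudogene, ATP5PDP4. NDUFA4 is counted with complex IV, to which its protein belongs. ATP5PDP4 lay just inside the minimum with a highest group mean of 1.00 CPM, followed by NDUFA7 at 1.06, and the pseudogene ATP5MC1P6 lay just outside at 0.897. COX4I2, a lung and hypoxia isoform of subunit 4, was dropped at 0.0579 CPM.

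Polyadenylated RNA was sequenced from 18 libraries in 6 groups of 3 biological replicates. MCF10A is a non-transformed human mammary epithelial line that here carried an H2B-GFP reporter, a fluorescent histone. The other line, HCT116, is a human colorectal carcinoma line, which here was unlabelled and described as p53-null, so the lines differ in tissue, transformation, p53 status, reporter and growth medium together. Each line, and a mixed culture seeded with 50% of each, received either no irradiation (NIR) or a dose of 10 Gy (IR). Harvest is placed at day 2 by the sample titles and at 72 h by the series text. Whether the 3 replicates of a group came from separate irradiations is not stated, so p-values measure the spread between these libraries.

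Complexes I to IV carry electrons from NADH and succinate to oxygen. Of these, complexes I, III and IV pump protons, and complex V uses the proton gradient to make ATP. Most subunits are made in the cytosol from nuclear genes and imported, while a small core of hydrophobic subunits is encoded by mitochondrial DNA, so the complexes are built from products of both genomes. The nuclear genes are widely expressed and many have promoters with sites for NRF1, ETS-family factors such as GABPA, and YY1. Orphaned subunits are degraded by mitochondrial proteases, which is why transcript levels alone do not give complex levels.

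Libraries held 25737818 to 40839835 counts. The line labels were checked with 10 marker genes per line. The summed level of the MCF10A markers was 11743 to 12878 CPM in MCF10A NIR and 18609 to 18940 in MCF10A IR, against 261 to 275 in HCT116 NIR and 345 to 369 in HCT116 IR. Of the HCT116 markers, KRT19, EPCAM and CDX2 were present, while VIL1, LGALS4, ASCL2, CDH17 and GPA33 were each under 1 CPM on average in HCT116. Their sum was 1061 to 1357 CPM in HCT116 NIR, 1752 to 1976 in HCT116 IR and 8.67 to 13.8 over the 6 MCF10A libraries. Of the MCF10A markers, CDH3 did not mark the line: its mean was 147 CPM in MCF10A NIR and 196 in HCT116 NIR, where it made up most of the sum. The mixed libraries lay close to HCT116: MCF10A markers summed to 297 to 315 CPM in Mixed NIR and 605 to 693 in Mixed IR. Between Mixed NIR and HCT116 NIR, 5 of the 10 MCF10A markers were called higher in the mixed cultures, among them KRT6A, KRT17, TP63 and TGFBI, while CDH3 was lower and others, such as KRT5 and KRT14, did not pass the test. TGFBI, at a mean of 2555 CPM in MCF10A NIR and 0 in HCT116 NIR, was at 31.2 in Mixed NIR, and KRT5, at 2883, 0.117 and 0.724 CPM in the same groups, was near 0. Levels of the subunit genes in the mixed cultures are therefore values of libraries in which MCF10A RNA was scarce, whatever the seeding ratio. Mitochondrially encoded genes, whose counts share the denominator of CPM with the nuclear subunits, took 5.10 to 5.32% of counts in MCF10A NIR and 6.06 to 6.35% in MCF10A IR, 8.42 to 8.75% in HCT116 NIR and 11.5 to 12.3% in HCT116 IR, and 8.37 to 8.73% and 12.0 to 12.7% in the mixed cultures.

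The summed level of the 80 genes was lower after irradiation in MCF10A. The 3 MCF10A NIR libraries gave 6559, 7077 and 6626 CPM and the 3 MCF10A IR libraries 5863, 6029 and 5969, so the groups did not overlap. HCT116 NIR gave 6702, 6891 and 6969 CPM and HCT116 IR 6585, 6583 and 6283, again without overlap but with a gap smaller than the spread within either group. With mitochondrially encoded genes left out of the denominator, MCF10A still did not overlap (6912 to 7460 against 6249 to 6438), whereas HCT116 did (7338 to 7637 against 7099 to 7508). The mixed cultures gave 6803, 6827 and 6347 CPM without irradiation and 5995, 6240 and 6276 with it. Such sums weigh the most abundant members most, and no test was made on them. In bulk RNA, fewer cells of a type and less RNA per cell cannot be told apart.

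Complex V made up the largest part of the sum. Its 17 genes together gave 2480 to 2656 CPM in MCF10A NIR and 2083 to 2194 in MCF10A IR, and 2607 to 2657 in HCT116 NIR and 2278 to 2401 in HCT116 IR. The sum of complex IV overlapped between NIR and IR in both lines: its 12 genes summed to 1005 to 1110 CPM in MCF10A NIR and 977 to 1012 in MCF10A IR, and to 1084 to 1243 and 1121 to 1223 in HCT116. The sum of the 37 complex I genes overlapped in HCT116, at 1690 to 1765 and 1700 to 1770 CPM, and did not in MCF10A, at 1821 to 1962 and 1660 to 1706. Levels were also divided by the union of all annotated exons of each gene, in kilobases. That union can be longer than the transcript expressed, so ranks between genes on this scale are rough. On it ATP5F1B (catalytic beta subunit) was at 360 CPM per kb in MCF10A NIR and 379 in HCT116 NIR. UQCRH (hinge protein of complex III) was at 118 and 148, and CYC1 (cytochrome c1) at 90.0 and 93.3. SDHA, the flavoprotein of complex II, was at 1.09 and 1.15, NDUFS7 at 0.741 and 0.724, NDUFA13 at 0.381 and 0.861 and NDUFA7 at 0.249 and 0.459. Within complex I the level per kilobase thus ran from NDUFA7 up to NDUFS5, at 276 CPM per kb in MCF10A NIR. NDUFA7 and NDUFA13 share 32.3% and 21.0% of their exon bases with another gene on the same strand, NDUFS7 shares 49.1% with one on the opposite strand, and SDHA has 4 listed pseudogenes. How reads in such places were counted is not given in the sources used here, and the levels of these genes are uncertain for that reason. Of the 79 subunit genes, 55 have no same-strand overlap.

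Irradiation of MCF10A was followed by lower levels of many subunit genes. Of the 80 genes, 40 fell and 3 rose at an adjusted p under 0.05 in edgeR's quasi-likelihood test, where 29.2% of all 15154 genes tested were lower and 26.2% higher, and 55.4% were called in either direction. The share of members called, 43 of 80, is thus near the background, while nearly all of their calls were in 1 direction. Their median log2 fold change was -0.18, against 0.00 over all genes tested. The changes were small: 5 of the 80 differed by more than 1.5-fold and 0 by more than 2-fold. Libraries of the 2 groups did not overlap in 45 of the 80 genes, against 60.6% of all genes tested. Under every one of 13 alternative settings 30 of the 40 lower calls held, and 0 of the 3 higher calls did. Upper-quartile factors gave 31 lower and 8 higher members and moved the share of higher among all called genes from 47.4% to 57.5%, and gave a median of -0.09. The members then lay 0.18 below the median of all genes, as with the TMM factors used here.

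Complex I is the largest complex, with a catalytic core that carries flavin and iron-sulfur clusters and a shell of accessory subunits. In MCF10A 3 of its 7 nuclear-encoded core genes fell and 0 rose, and 16 of its 30 accessory genes fell and 1 rose. NDUFA5, an accessory subunit of the matrix arm (chr7:123536997-123558255, minus strand, GRCh38), was at 117, 116 and 115 CPM in MCF10A NIR and at 71.5, 76.4 and 76.7 in MCF10A IR. The 3 irradiated libraries all lay far below the others, with a log2 fold change of -0.65 ± 0.05 (SE) and an adjusted p of 9.5e-12. NDUFA5 has 12 listed pseudogenes, so part of its reads may map to more than 1 place. NDUFB6, an accessory subunit of the membrane arm (chr9:32552999-32573184, minus strand), went from 40.7, 45.1 and 35.5 CPM to 28.0, 27.3 and 25.2, a change of -0.62 ± 0.08 (adjusted p = 4.5e-07). NDUFC1, also of the membrane arm, fell by 0.59 on the log2 scale, from 23.4, 23.5 and 20.7 CPM to 14.9, 14.6 and 16.1. NDUFB4, NDUFS6, NDUFA9, NDUFAB1 (the mitochondrial acyl carrier protein) and NDUFS4 fell by 0.38 to 0.51 on the same scale.

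The core subunits of complex I had a median of -0.14 in MCF10A and the accessory ones of -0.20, a difference that was not tested. NDUFS1, which holds iron-sulfur clusters, was at 209, 221 and 213 CPM in MCF10A NIR and 213, 205 and 207 in MCF10A IR, which overlap (-0.06 ± 0.04, adjusted p = 0.24). NDUFV1, the subunit that binds NADH and flavin, was at 109, 111 and 114 CPM and at 116, 119 and 114 after irradiation (0.04 ± 0.05, adjusted p = 0.48). NDUFS3 fell by 0.39 (adjusted p = 0.00011) and NDUFV2 by 0.49 (adjusted p = 0.017). NDUFV2 rests on 4.32 to 7.29 CPM, and its call was lost in DESeq2 and without MCF10A NIR replicate 1. NDUFB8, an accessory subunit often used as a protein marker of complex I, was at 3.50, 3.04 and 3.55 CPM and at 2.72, 3.21 and 2.62 after irradiation (-0.26 ± 0.22, adjusted p = 0.32). It shares 33.8% of its exon bases with a same-strand gene.

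Complex II, which oxidises succinate, split by subunit in MCF10A. SDHB, the iron-sulfur subunit, went from 87.2, 91.0 and 84.7 CPM to 61.8, 61.9 and 65.5 (-0.50 ± 0.06, adjusted p = 1.2e-08), and the membrane anchor SDHD fell by 0.45. The other membrane anchor, SDHC, was at 102, 113 and 111 CPM and at 126, 130 and 115 after irradiation, a rise of 0.16 ± 0.05 (adjusted p = 0.014) that was lost when any of 3 single libraries was left out. SDHA was at 8.59, 9.97 and 8.91 CPM and at 10.6, 8.83 and 9.67 (0.06 ± 0.13, adjusted p = 0.72). The subunits of this small complex thus did not share a direction in MCF10A.

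In complex III 6 of 9 genes fell and 0 rose in MCF10A. CYC1, the haem-bearing subunit that hands electrons to cytochrome c, went from 171, 194 and 168 CPM to 121, 120 and 129 (-0.55 ± 0.05, adjusted p = 1.1e-09). The Rieske iron-sulfur subunit UQCRFS1 went from 94.9, 92.8 and 86.4 CPM to 70.4, 67.7 and 75.4 (-0.38 ± 0.06). The core protein UQCRC2 fell by 0.19, from 207, 201 and 203 CPM to 189, 178 and 177, without overlap. UQCRC1, its partner in the core, overlapped between the groups at 171, 179 and 173 CPM and 163, 172 and 171 (-0.07 ± 0.05, adjusted p = 0.19).

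Complex IV had 5 lower and 1 higher gene of 12 in MCF10A, with a median of -0.05. COX7B, a small subunit (chrX:77899438-77907373, plus strand), went from 63.7, 69.6 and 61.5 CPM to 48.8, 41.5 and 41.1 (-0.59 ± 0.07, adjusted p = 3.1e-08). COX8A fell by 0.56, COX5B by 0.37, COX5A by 0.23 and COX7C by 0.14, the last of which was lost in 7 of 13 alternatives. COX4I1, the ubiquitous isoform of subunit 4, was at 182, 197 and 177 CPM and at 180, 198 and 176 after irradiation. COX7A2L, which joins complexes III and IV in supercomplexes, rose by 0.15 ± 0.05 (adjusted p = 0.013), a call that was lost without MCF10A IR replicate 3.

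Complex V had 8 lower and 0 higher genes of 17 in MCF10A. The proton-driven rotor ring is built from the c subunit, which 3 genes encode, and these fell by different amounts. ATP5MC2 (chr12:53632726-53677408, minus strand) had the largest decrease of the 80 genes, from 72.5, 78.8 and 70.5 CPM to 45.5, 52.5 and 45.0 (-0.66 ± 0.07, adjusted p = 2.2e-09), or 0.634-fold. ATP5MC1 went from 62.2, 72.1 and 60.6 CPM to 48.9, 46.7 and 51.7 (-0.43 ± 0.07), and ATP5MC3, the most abundant of the 3 in CPM, from 183, 206 and 188 to 145, 156 and 157 (-0.35 ± 0.05). All 3 genes were without overlap between the groups. The catalytic subunits ATP5F1A and ATP5F1B, which have the highest CPM of the members, fell by 0.27 and 0.24: ATP5F1B was at 816, 866 and 825 CPM and at 694, 725 and 734. ATP5PD, the d subunit of the peripheral stalk, was at 37.9, 46.5 and 41.5 CPM and at 42.4, 52.2 and 48.4 (0.16 ± 0.08, adjusted p = 0.093).

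**Figure D1:**
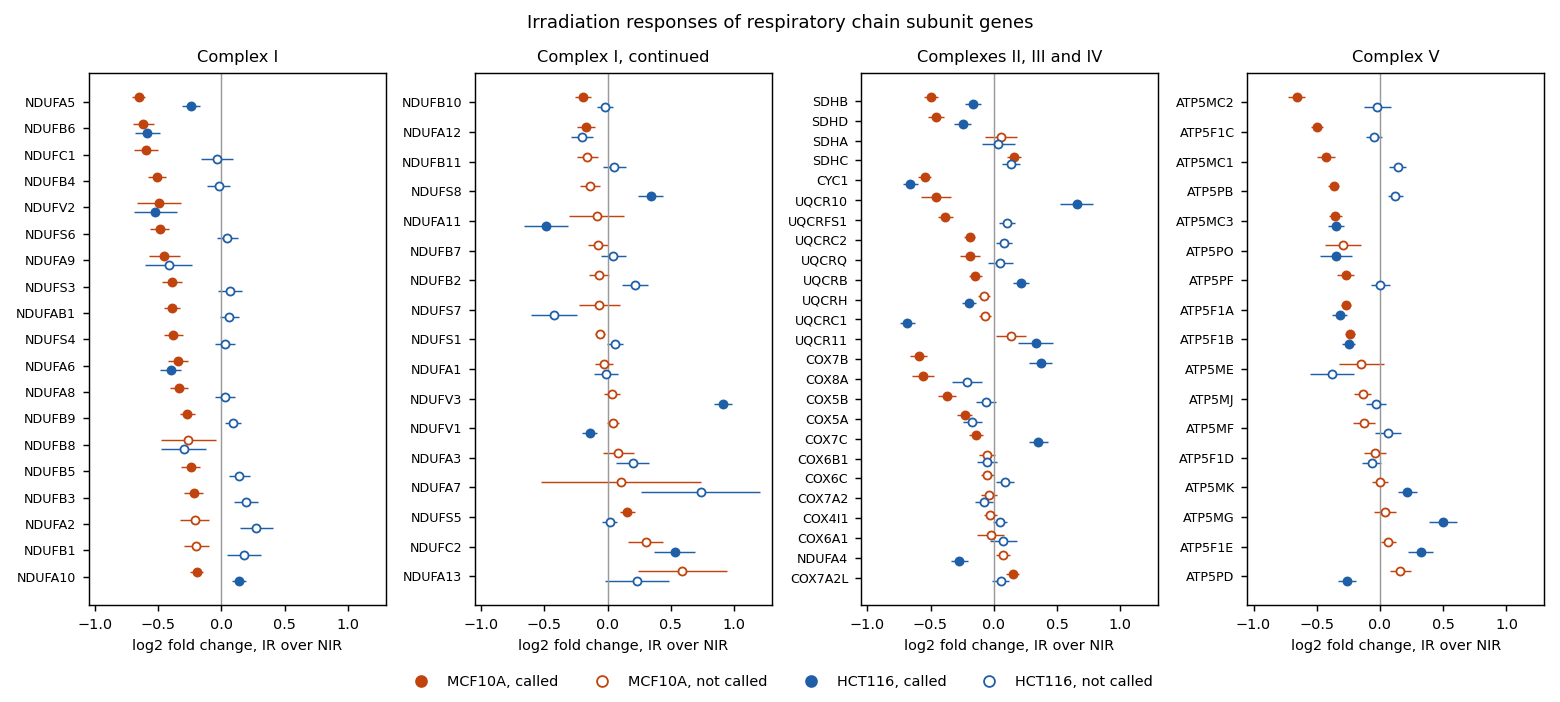
Log2 fold change after irradiation (x axis, IR over NIR, with SE bars) of 78 subunit genes, grouped by complex and ordered by the MCF10A value. Points are MCF10A (orange) and HCT116 (blue), filled where the adjusted p is under 0.05: MCF10A points lie mostly left of 0, with ATP5MC2 at -0.66, while HCT116 points spread to both sides, from UQCRC1 at -0.68 to NDUFV3 at 0.92.

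Promoter sequence was available for 65 of the 79 subunit genes in a RefSeq table (GRCh38.p14) that reaches from 250 bases before to 50 bases after each gene's start. The NRF1-type motif, GCGCA followed by any base and GCGC, was found on either strand in 16 of the 65 (24.6%), against 6.28% of 27305 promoters in the table and 11.0% of those of genes at 1 CPM or more. The ETS-type motif CCGGAAG was found in 20 (30.8%, against 10.7% and 18.0%) and the YY1-type motif AANATGGC in 22 (33.9%, against 6.82% and 9.37%). At least 1 of these was found in 42 of 65 promoters. The motifs do not contain one another, and a match is a description of the letters, not of a bound site. Pieces that end at the RefSeq start are shown for 5 members that span complexes I, III, IV and V and the range of responses, 5′ to 3′ on the gene's strand, with full motif matches in capitals. The GENCODE start of each of these genes lies 16 to 28 bases before the RefSeq start. NDUFB4 (chr3:120596166-120596335, plus strand) and UQCR11 (chr19:1605463-1605632, minus strand) carry NRF1-type matches, the latter with ETS-type matches as well. COX5B (chr2:97645892-97646061, plus strand) and ATP5PD (chr17:75046970-75047139, minus strand) carry ETS-type matches, and NDUFB6 (chr9:32573160-32573329, minus strand) carries none of the 3 motifs.
NDUFB4: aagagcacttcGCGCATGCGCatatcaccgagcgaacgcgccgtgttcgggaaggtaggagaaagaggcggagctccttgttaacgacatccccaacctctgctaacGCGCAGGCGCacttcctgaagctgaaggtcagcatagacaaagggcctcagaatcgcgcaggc
UQCR11: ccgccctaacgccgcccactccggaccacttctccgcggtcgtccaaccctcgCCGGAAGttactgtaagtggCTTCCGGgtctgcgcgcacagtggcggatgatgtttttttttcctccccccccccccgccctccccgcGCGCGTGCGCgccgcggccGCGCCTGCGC
COX5B: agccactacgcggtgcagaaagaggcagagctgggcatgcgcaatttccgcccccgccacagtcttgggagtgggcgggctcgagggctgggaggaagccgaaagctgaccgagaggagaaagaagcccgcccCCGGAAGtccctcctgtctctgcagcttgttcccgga
ATP5PD: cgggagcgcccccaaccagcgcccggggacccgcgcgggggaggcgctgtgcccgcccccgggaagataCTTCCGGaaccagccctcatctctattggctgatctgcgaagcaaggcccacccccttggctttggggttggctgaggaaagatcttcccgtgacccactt
NDUFB6: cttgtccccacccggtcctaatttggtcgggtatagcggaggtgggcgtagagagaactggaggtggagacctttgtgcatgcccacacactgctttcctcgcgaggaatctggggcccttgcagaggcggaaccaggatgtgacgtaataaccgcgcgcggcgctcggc

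Genes with and without each motif are set side by side as a description, and no difference between them was tested. In MCF10A 8 of the 16 genes with an NRF1-type match fell and 25 of the 49 without one, with median log2 fold changes of -0.23 and -0.19. For the ETS-type motif 7 of 20 with a match fell and 26 of 45 without, with medians of -0.07 and -0.22. For the YY1-type motif 13 of 22 with a match fell and 20 of 43 without, with medians of -0.35 and -0.17. Of the 23 genes with none of the 3 motifs, 13 fell, with a median of -0.20. In HCT116 all these medians lay between -0.04 and 0.06. NDUFB4, with several NRF1-type matches, and NDUFB6, with no match, fell by 0.51 and 0.62 in MCF10A. In HCT116 NDUFB6 fell by 0.58 while NDUFB4 was at -0.02 ± 0.09 (adjusted p = 0.86).

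Irradiation of HCT116 moved the subunit genes in both directions. Of the 80 genes, 12 rose and 18 fell, where 25.3% of all 16857 genes tested were higher, 27.2% lower and 52.5% called in either direction, so that fewer members than genes at large were called. The median log2 fold change was 0.03, against 0.01 over all genes tested. Libraries did not overlap in 34 of 80 genes, against 58.8% of all genes tested, and 4 genes differed by more than 1.5-fold. Of the calls, 5 of the 12 higher and 13 of the 18 lower held under all 13 alternatives. Without HCT116 NIR replicate 1 or HCT116 IR replicate 2 the higher calls numbered 7, and the median of the members lay between -0.02 and 0.09 when single libraries were left out.

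The largest increases in HCT116 were in small accessory subunits. NDUFV3, a small subunit of the NADH-oxidising module of complex I (chr21:42879644-42913304, plus strand), went from 40.0, 36.2 and 39.1 CPM to 74.7, 71.7 and 69.8. The groups were far apart, at 0.92 ± 0.07 on the log2 scale (adjusted p = 2.5e-10). UQCR10, a small subunit of complex III (chr22:29767369-29770413, plus strand), went from 9.95, 9.97 and 12.0 CPM to 19.3, 14.6 and 16.1 (0.66 ± 0.13, adjusted p = 0.00015). ATP5MG, the g subunit in the membrane part of ATP synthase, went from 16.5, 21.8 and 19.8 CPM to 24.2, 29.8 and 27.6 (0.50 ± 0.11). All of these were without overlap. NDUFC2, an accessory subunit of complex I, went from 9.23, 8.36 and 5.79 CPM to 9.84, 13.2 and 10.6 (0.53 ± 0.16, adjusted p = 0.0078), a call lost without HCT116 IR replicate 2 (adjusted p = 0.0755). The complex IV subunits COX7B and COX7C rose by 0.37 and 0.35, and the complex III subunits UQCRB and UQCR11 by 0.22 and 0.33, the latter call being lost in 8 of 13 alternatives. Mitochondrially encoded genes took a larger share of counts in the same libraries, and with those genes left out of the scaling 11 of the 12 rises were called, all but NDUFA10.

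The largest decreases in HCT116 were in complex III. UQCRC1, a core protein (chr3:48599002-48610976, minus strand), went from 186, 186 and 179 CPM to 120, 107 and 114 (-0.68 ± 0.06, adjusted p = 1.6e-09). CYC1 went from 191, 181 and 181 CPM to 124, 107 and 117 (-0.66 ± 0.06, adjusted p = 6.2e-09). The other core protein, UQCRC2, was at 180, 205 and 204 CPM and at 210, 209 and 201 (0.08 ± 0.06, adjusted p = 0.28), and UQCRFS1 at 75.8, 80.5 and 78.2 and 85.1, 84.0 and 81.2 (0.10 ± 0.06, adjusted p = 0.19). Subunits of the same complex therefore moved apart: 3 of 9 fell, 3 rose and 3 did not pass the test.

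Elsewhere in HCT116, NDUFB6 went from 32.9, 37.8 and 39.4 CPM to 27.1, 24.4 and 21.4 (-0.58 ± 0.10, adjusted p = 2.9e-05). NDUFV2 went from 7.81, 8.45 and 5.79 CPM to 4.63, 5.56 and 5.09 (-0.52 ± 0.17, adjusted p = 0.013), lost without HCT116 NIR replicate 2 or IR replicate 1. Among the 7 core genes of complex I, NDUFS8 rose by 0.34, and NDUFV1 and NDUFV2 were among those that fell. NDUFV1 was at 130, 128 and 130 CPM and at 119, 115 and 116 (-0.14 ± 0.06, adjusted p = 0.043), a call lost in 11 of 13 alternatives. SDHB, at 82.7, 86.2 and 90.0 CPM and 77.7, 79.5 and 72.4 after irradiation, fell by 0.16 (adjusted p = 0.0425), also a call lost in most alternatives. COX4I1 (252, 266 and 275 CPM against 278, 274 and 265) and COX5A (83.7, 90.1 and 85.8 against 85.5, 69.5 and 74.8) did not pass the test.

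In complex V of HCT116 5 genes fell and 3 rose of 17. ATP5F1B was at 877, 885 and 874 CPM and at 737, 748 and 723 after irradiation (-0.25 ± 0.05, adjusted p = 0.00029), and ATP5F1A at 681, 653 and 598 and at 497, 538 and 504 (-0.32 ± 0.06). The 3 genes of the c subunit differed: ATP5MC3 fell from 154, 165 and 166 CPM to 130, 130 and 117 (-0.35 ± 0.06), ATP5MC2 was at 42.9, 46.6 and 64.8 and at 51.7, 48.9 and 50.7 (-0.02 ± 0.11, adjusted p = 0.89), and ATP5MC1 was at 75.3, 71.1 and 81.5 and at 86.4, 83.6 and 79.3 (0.14 ± 0.07, adjusted p = 0.096). ATP5PD fell from 89.9, 82.8 and 75.7 CPM to 67.0, 72.8 and 65.7 (-0.26 ± 0.07).

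**Figure D2:**
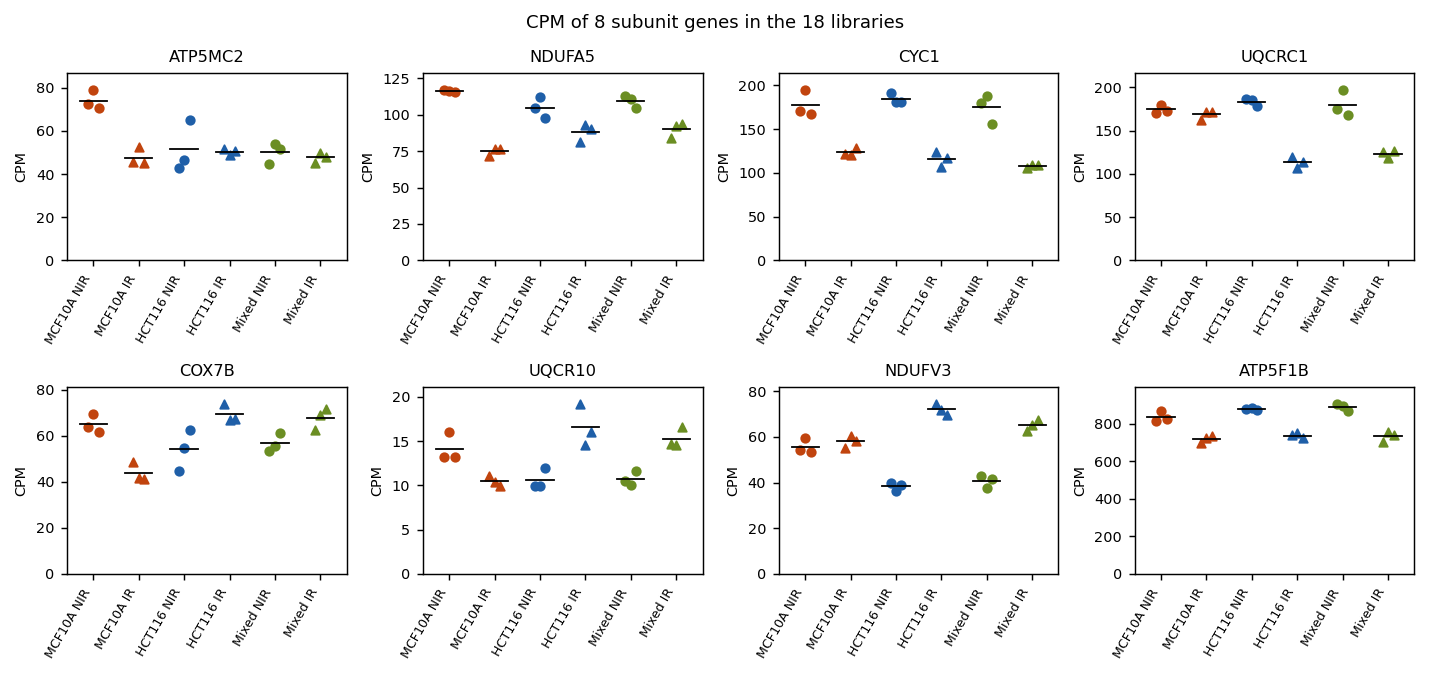
CPM (y axis, linear from 0) of 8 subunit genes in each of the 18 libraries, by group, with circles for NIR, triangles for IR and a bar at the mean of 3 libraries. ATP5MC2 is lower after irradiation in MCF10A and overlaps in HCT116, NDUFV3 and UQCRC1 separate in HCT116 and overlap in MCF10A, COX7B and UQCR10 separate in opposite directions, and CYC1 and ATP5F1B are lower after irradiation in all 3 cultures.

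Set side by side, 16 genes were called in both lines, which is 37.2% of the 43 called in MCF10A and 53.3% of the 30 called in HCT116. Of these, 11 fell in both, among them ATP5F1A, ATP5F1B, ATP5MC3, CYC1, NDUFA5, NDUFA6, NDUFB6, NDUFV2, SDHB and SDHD. The other 5 fell in MCF10A and rose in HCT116: COX7B, COX7C, NDUFA10, UQCR10 and UQCRB. Among all genes tested in both lines, 5133 were called in both, which is 64.9% of those called in MCF10A and 64.1% of those called in HCT116, and 72.7% of these had the same direction.

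The difference between the responses was tested as an interaction over the 4 monoculture groups, in a joint fit with its own scaling factors. A gene at equal CPM in all 4 groups has a fitted value of -0.05 there. In the separate fits such a gene is at -0.02 in MCF10A and 0.01 in HCT116. Interaction values are therefore not the exact differences of the responses given above, and calls of small differences depend on the scaling. The response of HCT116 was higher than that of MCF10A in 26 of the 80 genes and lower in 6, where 15.4% of all 18179 genes tested were higher, 21.9% lower and 37.3% called in either direction. The median difference was 0.11 in log2 units, against -0.10 over all genes tested. Leaving the mitochondrially encoded genes out of the scaling moved the share of higher among all called genes from 41.3% to 52.5%, and a fit with no filter on low counts to 51.9%; for the members these fits left 3 genes lower and gave a median of 0.22 each. Set against the median of all genes in the same fit, the median member was higher by 0.22 with the TMM factors used here and by 0.16 to 0.27 over the alternatives. Of the accessory genes of complex I, 12 of 30 were higher and 0 lower, and of its 7 core genes 2 were higher and 2 lower. Of the 32 calls, 18 held under all 19 alternatives, among them 15 of the higher ones. The higher calls numbered 15 without MCF10A NIR replicate 2 and 17 without HCT116 NIR replicate 1, and the lower calls 3 without any single MCF10A IR library or without HCT116 IR replicate 2, with medians over the members of 0.19 to 0.22. That median was 0.05 without MCF10A NIR replicate 2 and 0.07 without HCT116 IR replicate 1.

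UQCR10 had the largest difference, 1.03 ± 0.18 (adjusted p = 6.4e-05): its 3 MCF10A IR libraries (11.1, 10.4 and 9.97 CPM) lay below MCF10A NIR (13.2, 16.1 and 13.2), while its HCT116 IR libraries lay above HCT116 NIR. COX7B followed at 0.89 ± 0.13 (adjusted p = 6.1e-06), with HCT116 libraries at 44.7, 54.9 and 62.6 CPM without and 74.1, 67.0 and 67.5 with irradiation. NDUFV3 differed by 0.80 ± 0.10 (adjusted p = 2.7e-07), and its MCF10A libraries overlapped at 54.4, 59.6 and 53.4 CPM and 55.1, 60.6 and 58.5. ATP5MC2 differed by 0.56 ± 0.15 (adjusted p = 0.0036). In the other direction UQCRC1 differed by -0.69 ± 0.07 (adjusted p = 4.4e-08), ATP5PD by -0.50 ± 0.12, NDUFA4 by -0.42 ± 0.10 and NDUFV1 by -0.26 ± 0.07. NDUFA4, a complex IV subunit, was at 93.8, 111 and 96.8 CPM and 107, 107 and 108 in MCF10A, and at 90.1, 90.9 and 103 and 76.9, 81.4 and 75.1 in HCT116. CYC1, lower in both lines, had a difference of -0.19 ± 0.09 that did not pass the test (adjusted p = 0.093).

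Other genes of the mitochondrial energy system were read from lists. The 13 chain subunits encoded by mitochondrial DNA did not move with their nuclear partners: 9 rose and 3 fell in MCF10A (median 0.17), and all 13 rose in HCT116 (median 0.68) and in the mixed cultures (median 0.53). Genes for the assembly factors, which build the complexes but are not part of them, fell in 27 and rose in 2 of 49 in MCF10A (median -0.31), and rose in 19 and fell in 6 of 50 in HCT116 (median 0.19). Mitochondrial ribosomal protein genes, whose products translate the mitochondrially encoded subunits, fell in 61 and rose in 0 of 76 in MCF10A (median -0.39), and rose in 22 and fell in 11 of 75 in HCT116 (median 0.01). The 17 genes of the tricarboxylic acid cycle and pyruvate dehydrogenase had 12 lower and 0 higher in MCF10A and 7 lower and 2 higher in HCT116. Regulators and replication factors of mitochondrial biogenesis had 13 lower and 0 higher of 18 in MCF10A (median -0.43), and 6 lower and 7 higher of 17 in HCT116 (median 0.14). By the interaction, 45 of 76 ribosomal protein genes, 20 of 50 assembly factors and 10 of 18 regulators were higher in the HCT116 response, each with 1 lower. Over all genes tested, 29.2% were lower and 26.2% higher in MCF10A, and 27.2% lower and 25.3% higher in HCT116. The shares were 25.4% lower and 24% higher in the mixed cultures, and 21.9% lower and 15.4% higher by the interaction.

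By rule, the called list members with the largest changes were named. In MCF10A PET117, a complex IV assembly factor, fell by 1.28 from a mean of 1.22 CPM to 0.504, and PPARGC1B, a coactivator of mitochondrial genes, fell by 1.03 ± 0.08 from 42.7 to 21.3. C15orf48, which encodes a paralog of NDUFA4, rose by 1.89 ± 0.22 from 1.62 to 6.09 CPM, and the complex IV assembly factor SURF1 rose by 0.58. In HCT116 TWNK, the mitochondrial DNA helicase, rose by 1.07 ± 0.07 from 59.5 to 124 CPM, and COX20, an assembly factor, rose by 1.12 from 2.46 to 5.30. COX6B2, a testis isoform, fell by 1.67 from 1.84 to 0.568 CPM, and MRPS34 by 0.72. The genes of the factors whose motifs were searched above were picked out after their values were seen: NRF1 fell by 0.77 in MCF10A and 0.51 in HCT116, GABPA by 0.48 and 0.38, and YY1 fell by 0.24 in MCF10A and was at -0.08 ± 0.06 in HCT116 (adjusted p = 0.23). CYCS and TFAM were also chosen after their values were seen. CYCS encodes cytochrome c, the electron carrier between complexes III and IV. It fell by 0.62 ± 0.04 in MCF10A and rose by 0.39 ± 0.06 in HCT116. TFAM, which packages mitochondrial DNA and takes part in its transcription, fell by 0.95 in MCF10A and 0.16 in HCT116.

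**Figure D3:**
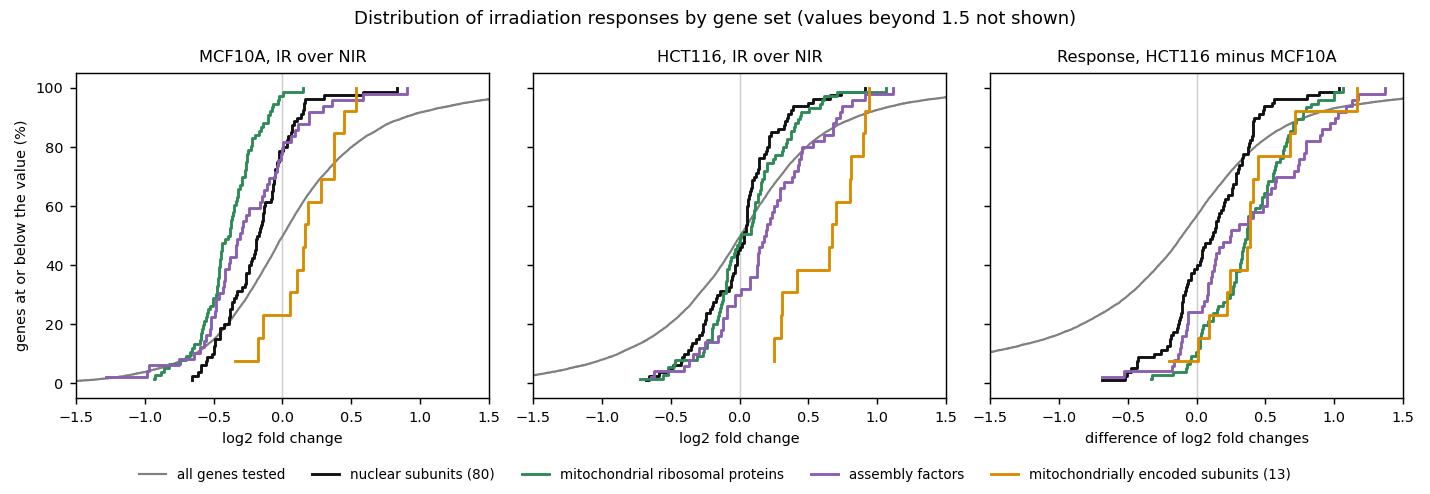
Cumulative share of genes (y axis, %) at or below a log2 fold change (x axis, shown from -1.5 to 1.5) for all genes tested (grey), the 80 nuclear subunit genes (black), mitochondrial ribosomal protein genes (green), assembly factors (purple) and the 13 mitochondrially encoded subunits (orange). The panels show MCF10A, HCT116 and the difference of the responses: in MCF10A the black curve crosses 50% at -0.18 and the green one at -0.39, and in HCT116 the orange curve lies wholly right of 0.

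The mixed cultures, whose libraries carried few MCF10A reads, gave values close to HCT116. Of the 80 genes, 11 rose and 24 fell after irradiation, where 24% of all 16906 genes tested were higher, 25.4% lower and 49.4% called in either direction. The median log2 fold change was -0.05, against 0.01 over all genes tested. Libraries did not overlap in 36 genes, against 56.4% of all genes tested. In complex V 9 genes fell and 3 rose, with a median of -0.18. Without Mixed NIR replicate 3 the higher calls numbered 7 and the median was -0.10, without Mixed IR replicate 1 the median was -0.01, and with upper-quartile factors it was -0.02. Of the 30 genes called in HCT116, 22 (73.3%) were also called in the mixed cultures, which is 62.9% of the 35 called there, and all 22 had the same direction, 9 higher and 13 lower. Among all genes tested in both, the corresponding shares were 77.0% and 82.1%, and 99.8% of the genes called in both had the same direction.

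CYC1 had the largest decrease in the mixed cultures, from 180, 188 and 156 CPM to 105, 109 and 109 (-0.72 ± 0.07, adjusted p = 8.8e-09). UQCRC1 went from 175, 197 and 169 CPM to 125, 119 and 126 (-0.57 ± 0.06), NDUFB6 from 37.9, 37.9 and 30.2 to 18.7, 27.4 and 27.8 (-0.54 ± 0.12), and NDUFA6 from 45.9, 42.0 and 40.7 to 31.1, 30.5 and 30.7 (-0.50 ± 0.08). None of these 4 overlapped. NDUFV3 rose from 42.8, 37.8 and 41.7 CPM to 62.8, 65.1 and 67.3 (0.65 ± 0.07, adjusted p = 1.2e-07). UQCR10 rose from 10.5, 10.1 and 11.6 CPM to 14.6, 14.5 and 16.6 (0.48 ± 0.11), and NDUFC2 by 0.46 and UQCR11 by 0.41. The calls of NDUFC2 and UQCR11 were lost when single mixed libraries were left out.

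Compared directly without irradiation, 0 of the 80 genes differed between mixed and HCT116 cultures in edgeR's test and 0 in DESeq2, with 3 at an unadjusted p under 0.05, where 2.04% of all 16455 genes tested were called. Fitted differences ran from -0.23 to 0.22 in log2 units. After irradiation 6 genes were lower in the mixed cultures and 0 higher, where 8.56% of 17137 genes tested were called, 3.48% lower and 5.08% higher. ATP5MJ, a small membrane subunit of ATP synthase, was at 50.9, 53.9 and 45.6 CPM in HCT116 IR and 39.9, 41.3 and 42.9 in Mixed IR (-0.29 ± 0.07, adjusted p = 0.01). COX7C, COX7A2, COX7A2L, UQCRC2 and NDUFB9 were lower by 0.18 to 0.20. None of the 6 calls held under all 13 alternatives: without HCT116 IR replicate 2, 0 genes were lower, and 1 or 2 without any of the Mixed IR libraries.

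Without irradiation the lines differed in 49 of the 80 genes, 9 higher and 40 lower in HCT116, where 38.7% of all 16568 genes tested were higher, 36.1% lower and 74.8% called in either direction. The median log2 difference was -0.18, against 0.05 over all genes tested. Libraries did not overlap in 42 genes, against 77.7% of all genes tested, and 15 genes differed by more than 1.5-fold. The direction of small differences between the lines depends on the scaling. With the TMM factors used here a gene at equal CPM in both lines has a fitted value of -0.20. Overlap was judged in CPM, without these factors. ATP5F1B was called lower although all its HCT116 NIR libraries lay above those of MCF10A NIR (mean CPM 879 and 835). With upper-quartile factors, which moved the median of all genes to 0.25 and the share of higher among all called genes from 51.8% to 62.4%, 21 of the 80 genes were higher and 24 lower. Among the fixed members and those with the largest changes, CYC1 and ATP5F1B changed sign under that scaling, to 0.06 and 0.08. Other members may have done so too. The median over the members was 0.02 there, but relative to the median of all genes the median member was lower by 0.23 with both sets of factors.

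Several differences between the lines exceed that shift. NDUFA12, an accessory subunit, was at 46.9, 56.3 and 55.2 CPM in MCF10A NIR and 33.6, 34.0 and 30.4 in HCT116 NIR (-0.89 ± 0.08), NDUFA9 at 11.4, 11.5 and 12.4 and 7.52, 6.84 and 7.24 (-0.91 ± 0.13), and NDUFS6 at 47.3, 50.0 and 42.0 and 31.2, 30.1 and 32.8 (-0.77 ± 0.08). None of these overlapped. ATP5PD (chr17:75038863-75046985, minus strand) was higher in HCT116, at 89.9, 82.8 and 75.7 CPM against 37.9, 46.5 and 41.5 (0.78 ± 0.08, adjusted p = 1.1e-07). NDUFA13, NDUFB8 and NDUFA11 were higher by 0.97, 0.90 and 0.74. All 3 lie under 8 CPM in every library and share exon bases with same-strand genes. UQCRB, COX4I1 and ATP5F1D were higher by 0.26, 0.31 and 0.58, and the 11 mitochondrially encoded subunits that were called, of 13, were all higher in HCT116 (median 0.43).

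**Figure D4:**
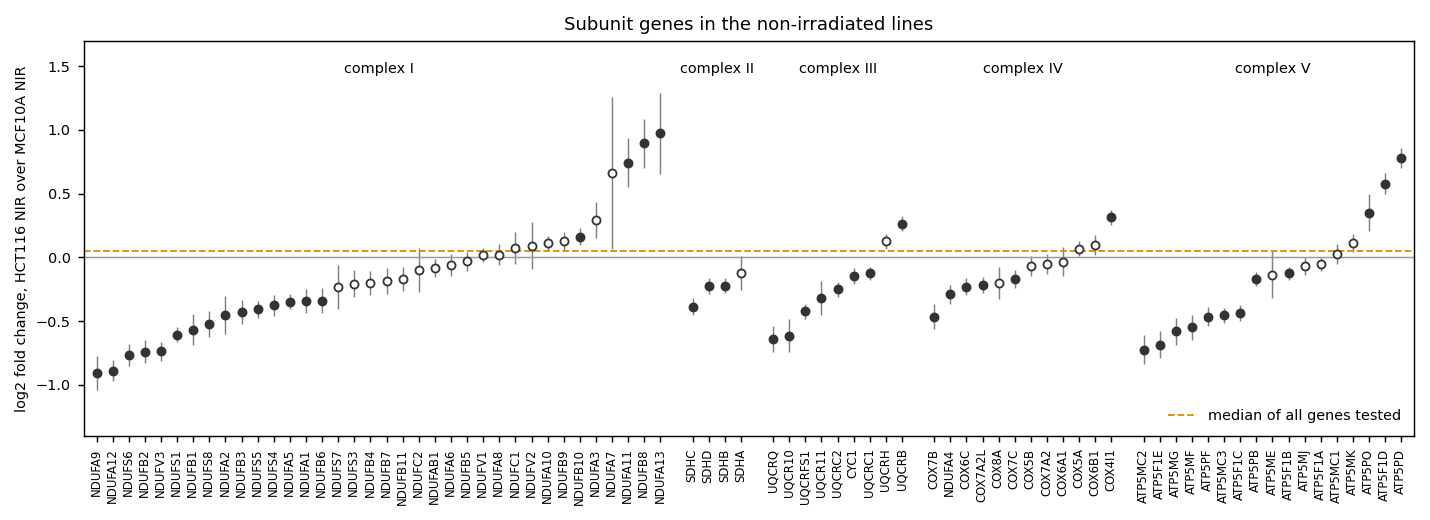
Log2 fold change of HCT116 NIR over MCF10A NIR (y axis, TMM scaling, with SE bars) of 78 subunit genes, ordered within each complex, filled where the adjusted p is under 0.05. Most points lie below the dashed median of all genes tested at 0.05, NDUFA9 at -0.91 and NDUFA12 at -0.89 lie far below it, and NDUFA13 at 0.97 and NDUFB8 at 0.90 lie far above.

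Between the irradiated lines 23 of the 80 genes were higher in HCT116 and 27 lower, where 38.1% of all 16932 genes tested were higher, 36.8% lower and 74.9% called in either direction. The median was -0.03, against 0.04 over all genes tested, and libraries did not overlap in 56 genes, against 78.9% of all genes tested. A gene at equal CPM has a fitted value of -0.23 here, while overlap was again judged in CPM. Upper-quartile factors gave 35 higher and 17 lower genes, with the share of higher among all called genes moving from 50.9% to 60.2%. The median of the members moved to 0.16. Among the fixed members and those with the largest changes, ATP5F1A changed sign, to 0.02, and other members may have done so too. When single libraries were left out that median lay between -0.07 and -0.02. NDUFA12 was lower in HCT116 by 0.98 on the log2 scale, NDUFA9 by 0.93 and UQCRC1 by 0.80. In the other direction NDUFB8 was higher by 0.80 and NDUFC1 and UQCRB by 0.57 each. UQCRB, at 110, 118 and 112 CPM in MCF10A IR, was at 192, 211 and 187 in HCT116 IR. NDUFA7 had the largest fitted value, 1.23 ± 0.50 (adjusted p = 0.03), from libraries at 0.367, 0.182 and 0.588 CPM and 1.28, 0.979 and 0.932, a call lost in 6 of 13 alternatives. Its mean reached the minimum of 1 CPM in HCT116 IR alone, so the rule kept it through the group in which it is higher. This call, counted among the 23, therefore carries no weight. This comparison shares its libraries with the irradiation comparisons of both lines, so its values are not independent of theirs.

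Replicate libraries of a group differed little for most members: the median coefficient of variation over the 80 genes lay between 4.60 and 7.34% in the 6 groups. NDUFA7 had the highest in 4 of them, up to 81.0%. Single libraries stood slightly apart for the whole set. MCF10A NIR replicate 2 was the highest of its group in 60 of the 80 genes, against 30.0% of all genes, and HCT116 NIR replicate 3 was the highest in 47, against 31.0%. Mixed NIR replicate 3 was the lowest of its group in 51 of the 80 genes, against 33.1% of all genes. Without MCF10A NIR replicate 2 the lower and higher calls in MCF10A numbered 34 and 6, and the genes with a higher response in HCT116 numbered 15.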

How the data were processed

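The authors deposited 1 table of raw counts per library, with whole-number counts per gene symbol and no normalization. The submitters' processing notes name fastp, STAR, featureCounts and the GRCh38 build; versions, annotation, strand setting and the treatment of multiply mapped reads are not given in the sources used here. Libraries were made with a stranded poly(A) kit, per the labels' protocols. Of counts from 1 to 10, 68.4% were even, so no error was derived from counting statistics by itself and halved counts were fitted as an alternative. Totals were 25737818 to 40839835 counts per library.

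Levels are CPM over the library total. Each comparison used edgeR 4.0.16 in R 4.3.3 on the libraries of its groups (all 4 monoculture groups for the difference of responses): TMM factors, filterByExpr, the 2-sided quasi-likelihood test, and Benjamini-Hochberg adjustment over all genes tested. All 80 members passed the filter in every comparison. Genes with an adjusted p under 0.05 are called, and "rose" and "fell" are used for these. The symbol rule, gene lists, motifs and tests were chosen with earlier results of these data known. Per-library values were given for the 4 called members with the largest change in each direction, for fixed members of each complex and for others chosen after their values were seen. Alternatives were RLE and upper-quartile factors, scaling without mitochondrially encoded genes, no filter, DESeq2 1.42.0, halved counts, replicate number as a block, and leaving out each library. In counts simulated from the MCF10A libraries, the test recovered 26.1% of genes changed by 0.25 in log2 units, 95.3% at 0.5 and 100% at 1, over 14682 genes. That simulation used a fixed dispersion and few changed genes, so its shares do not carry over to the fits of the data. Positions and exon overlaps are from GENCODE release 29 (GRCh38), which may not be the annotation used for counting. Promoters are from RefSeq (GRCh38.p14). Libraries with the same replicate number were not treated as pairs. Results of 1 member are not reported here or drawn in the figures, but it is included in the counts, sums and medians.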

Additional observations from a re-analysis of the deposited data

Results flagged for a closer look

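The difference between the irradiation responses of the lines, HCT116 minus MCF10A, was tested as an interaction in edgeR and passed an adjusted p under 0.05 in 32 of the 80 subunit genes. Of these calls 18 held under all 19 alternatives, 15 of them higher and 3 lower in HCT116. The values below thus include calls that other settings lost. All values are differences of log2 fold changes from the joint fit, in which a gene at equal CPM in all groups has a value of -0.05. They therefore depart from the differences of the separately fitted responses. The lines also differ in medium, reporter and p53 status, which cannot be told apart here.

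In complex I the response was higher in HCT116 by 0.26 for NDUFA10, 0.28 for NDUFB9, 0.29 for NDUFA8, 0.30 for NDUFB5, 0.33 for NDUFS4, 0.33 for NDUFB3, 0.34 for NDUFA5, 0.37 for NDUFAB1, 0.38 for NDUFS3, 0.40 for NDUFS8, 0.41 for NDUFB4, 0.46 for NDUFS6, 0.48 for NDUFC1 and 0.80 for NDUFV3. Of these, NDUFA10 alone was called in both lines with opposite signs. NDUFV1, a core subunit, had a difference of -0.26. In complex II the difference was 0.26 for SDHB, which fell in both lines and further in MCF10A. In complex III it was 0.19 for UQCRC2, 0.28 for UQCRB, 0.41 for UQCRFS1 and 1.03 for UQCR10, and in the other direction -0.20 for UQCRH and -0.69 for UQCRC1. UQCR10 and UQCRC1 are the highest and the lowest of the 80 genes and belong to the same complex. In complex IV it was 0.41 for COX7C, 0.89 for COX7B and -0.42 for NDUFA4. In complex V it was 0.37 for ATP5F1C, 0.39 for ATP5MG, 0.41 for ATP5PB, 0.49 for ATP5MC1, 0.56 for ATP5MC2 and -0.50 for ATP5PD. The adjusted p-values ran from 4.4e-08 for UQCRC1 to 0.0489 for NDUFA8.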

How the results depend on the processing

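Over all alternatives, 195 counts of called members and summed levels stayed close to the values given and 31 moved; of single genes and medians, 1269 values kept direction and call, 85 lost the call, 8 medians over the members moved, and 3 single genes changed sign. Upper-quartile factors gave 8 higher members in MCF10A after irradiation. Between the NIR lines they gave 21 higher and 24 lower, and between the IR lines 35 higher and 17 lower. Among the genes counted, CYC1 (0.0557) and ATP5F1B (0.0776) changed sign between the NIR lines and ATP5F1A (0.016) between the IR lines. Signs of the other members were not counted here, and some may have changed too. Scaling without mitochondrially encoded genes, and no filter, each left 3 members with a lower response in HCT116. Without mitochondrially encoded genes in the denominator the mean summed level was 7124 CPM in MCF10A NIR, 6347 in MCF10A IR, 7500.1 in HCT116 NIR, 7368 in HCT116 IR, 7281 in Mixed NIR and 7035 in Mixed IR; the larger values follow from the smaller denominator.

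Leaving out 1 library at a time gave 1 to 6 higher and 34 to 40 lower members in MCF10A after irradiation, 7 to 16 and 14 to 19 in HCT116, and 7 to 12 and 16 to 25 in the mixed cultures. Between the lines it gave 7 to 11 and 34 to 44 without irradiation and 18 to 22 and 23 to 28 with it, for the difference of responses 15 to 28 and 3 to 8, and for Mixed against HCT116 0 higher and 0 to 7 lower with irradiation. The cause of these changes was not tested.

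Replicate numbers are shared by the groups, but residuals of same-numbered libraries correlated at -0.08 to 0.12 over 15 pairs of groups. The correlations were highest between HCT116 and Mixed of the same treatment, at 0.1209 without and 0.108 with irradiation; their lowest single pair of libraries was at -0.0042 and 0.0521, with 2 of 3 HCT116 libraries correlating best with their own number, so the numbers were not taken as pairing. With replicate number as a block, Mixed against HCT116 with irradiation had 1 higher and 14 lower members, against 0 and 6 without the block; the other counts stayed within 1.5 times.

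In counts simulated from the HCT116 libraries over 16593 genes, 20.8% of changes of 0.25 in log2 units were recovered, and 87.7% at 0.5. Few genes were changed there and the dispersion was fixed, whereas 52.5% of genes were called in HCT116 itself. These shares therefore do not give the recovery in the fits of the data. A gene that is not called may still differ.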
